A study of Saccharomyces cerevisiae with 6 samples.

Results

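The 10 genes described here are the G1 cyclin genes CLN1, CLN2 and CLN3, the Pho85 cyclin genes PCL1 and PCL2, and the Start regulators SWI4, SWI6, MBP1, WHI5 and SIC1 of budding yeast. Each was read by 1 probe set, and they stand for 10 of 5449 measured genes. RNA came from the haploid strain BY4741, which carries deletions in HIS3, LEU2, MET17 and URA3, and 3 arrays were labelled wild type and 3 as a deletion of YPR045C in the same background. Thp3, the product of YPR045C, is known for its part in transcription elongation and RNA processing. All cells grew exponentially in the rich medium YPD, so each array averages over cells in every phase of the cycle. Whether a group's 3 RNAs were grown as separate cultures or from more than 1 strain isolate is not stated, so errors and p-values cover the spread between these arrays only, which may be technical.

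In budding yeast, Start is the point in G1 after which a cell is committed to a new division. The cyclin Cln3, bound to the kinase Cdc28, relieves the repressor Whi5 from the transcription factor SBF, made of the DNA-binding subunit Swi4 and its partner Swi6. SBF then drives CLN1, CLN2, PCL1 and PCL2, and the related factor MBF, made of Mbp1 and Swi6, drives genes of DNA replication. Cln1 and Cln2 feed back on their own transcription and mark Sic1, the inhibitor that holds back the S-phase cyclins, for destruction. Pcl1 and Pcl2 act with a different kinase, Pho85.

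YPR045C itself was not lower in the deletion-labelled arrays (9.51, 9.43 and 8.94 in the wild-type-labelled arrays, 9.93, 9.82 and 9.10 in the deletion-labelled arrays, on the log2 scale used below). The level thus goes against the label, a probe set outside the deleted part would check nothing, and every direction given here rests on the labels. Across all genes 21.7% passed an adjusted p of 0.05 in limma, with 630 higher and 554 lower. Without normalization the split was 479 and 635, and with median centring it was 258 and 858, which moved the median gene by -0.12. Genes of chromosome X fell together, with 295 of 316 lower, but the 10 genes lie on 8 other chromosomes. The MATa marker genes STE2, MFA1, MFA2, BAR1 and STE6 stood between 12.24 and 13.79 in both groups. Of the MATalpha markers STE3, MF(ALPHA)1 and MF(ALPHA)2 stood between 6.54 and 7.52, near the background limit of 6.48, and SAG1 on chromosome X stood at 10.39 and 9.16. MFA1 was called higher (0.50 ± 0.05, limma adjusted p = 6.51e-04) and SAG1 lower, STE3 was called higher but not in 12 of 17 alternatives, and the other 6 were not called. The summed intensity of these 4 MATalpha genes was 1573 to 1715 in the wild-type-labelled arrays and 924 to 964 in the deletion-labelled arrays. Of the 4 only SAG1, on chromosome X and by far the brightest, had a negative log2 difference (-1.23). STE3, MF(ALPHA)1 and MF(ALPHA)2 differed by 0.45, 0.12 and 0.36, so the lower sum was that of SAG1. The part of this sum in the results was not tested. Of the genes deleted in BY4741, URA3 and MET17 lay below the limit, while LEU2 (8.79 and 8.52) and HIS3 (11.55 and 11.60) did not.

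Of the 10 genes CLN2, PCL1 and SIC1 passed the threshold as lower in the deletion-labelled arrays, and 0 passed as higher. Of all genes 10.2% passed as lower and 11.6% as higher. Outside chromosome X, where all 10 lie, 5.05% passed as lower. The 10 genes were chosen by name with their measured differences between the labelled groups already known, so this count and the differences below are a description, with no test of the group. Their median log2 difference was -0.19, against 0.03 over all genes. The groups did not overlap for 4 of the 10 (CLN2, PCL1, WHI5 and SIC1), and for 41.2% of all genes. All 10 stood above the background limit in both groups. In cells pooled from a growing culture, fewer cells near Start and less of these mRNAs per cell cannot be told apart.

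**Figure D1:**
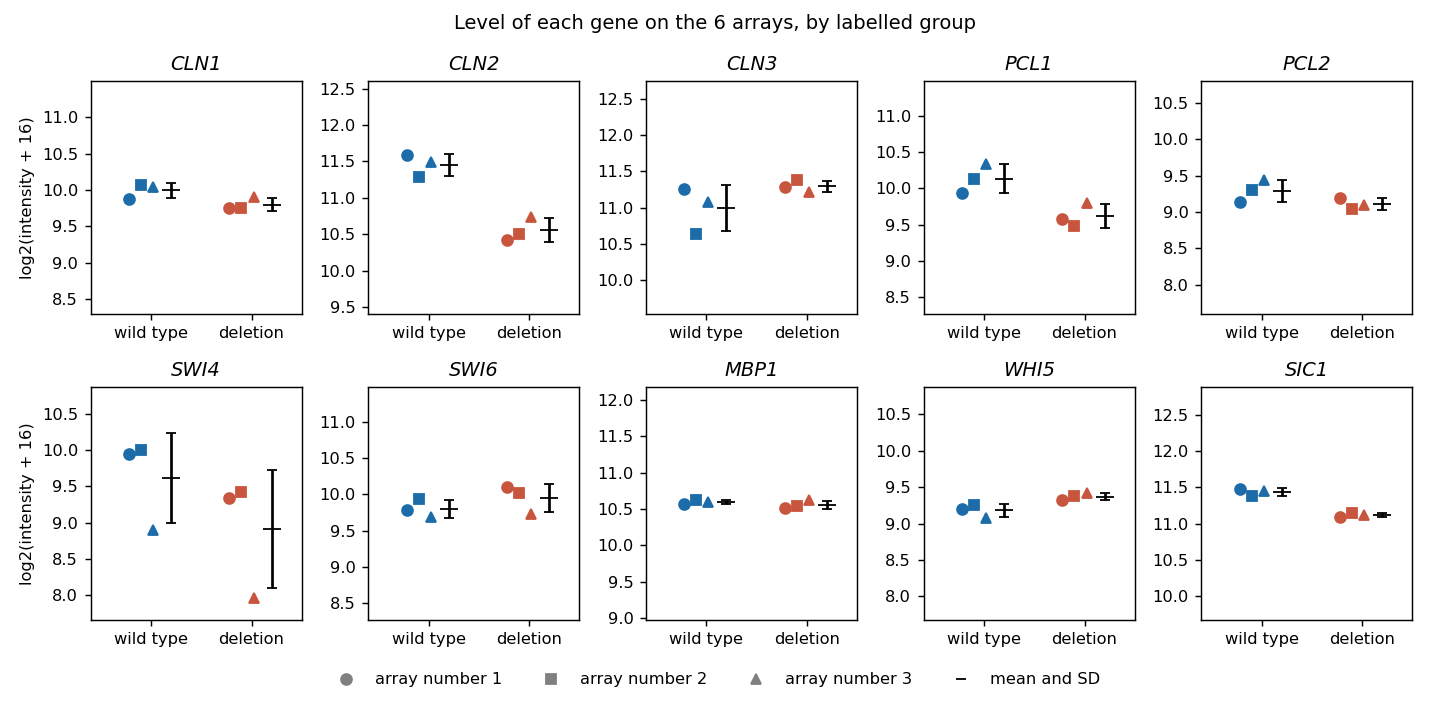
Level of each of the 10 genes on the 6 arrays, as log2(quantile-normalized intensity + 16), with all panels spanning the same number of log2 units. Symbols give the array number and bars the mean and SD of 3 arrays; CLN2, PCL1 and SIC1 are lower in the deletion-labelled arrays without overlap, WHI5 is higher without overlap, and SWI4 is low on both arrays numbered 3.

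CLN2 had the largest difference of the 10. Its intensity, as deposited, was 3166.96, 2517.85 and 2846.77 in the wild-type-labelled arrays and 1331.10, 1425.06 and 1654.23 in the deletion-labelled arrays. Every deletion-labelled array thus lay well below the lowest wild-type-labelled array. On the log2 scale the means were 11.46 ± 0.15 and 10.56 ± 0.16 (SD, n = 3 each), a difference of -0.90 ± 0.11 (SE), or 1.86-fold lower. Only 1.98% of all measured genes had a lower log2 difference. CLN2 passed the threshold under each of the 17 alternatives run, with differences from -1.04 to -0.83.

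CLN1 encodes the closest relative of Cln2 and overlaps with it in function. Its intensity was 960.37, 1067.91 and 1034.09 in the wild-type-labelled arrays and 827.97, 845.17 and 916.94 in the deletion-labelled arrays. The deposited values did not overlap, although the highest deletion-labelled array came near the lowest wild-type-labelled one, and after normalization the groups overlapped. The log2 difference was -0.20 ± 0.07 with a 95% interval of -0.37 to -0.03, and it did not pass the threshold over all genes. It passed in 2 of 17 alternatives, with the values as deposited (-0.24) and with median centring (-0.33). Within an array, the log2 value of CLN2 minus that of CLN1 was 1.70, 1.22 and 1.45 in the wild-type-labelled arrays and 0.68, 0.76 and 0.83 in the deletion-labelled arrays. A shift of a whole array on the log2 scale cancels in this within-array difference, but quantile normalization does not cancel fully. The within-array difference changed by -0.70 without overlap, so the measured levels of the pair changed unequally.

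CLN3, the upstream cyclin of Start, went the other way in its mean. Its intensity was 2525.86, 1602.20 and 2149.75 in the wild-type-labelled arrays and 2441.74, 2594.24 and 2306.16 in the deletion-labelled arrays. The second wild-type-labelled array was low, and the others overlapped between the groups. The log2 difference was 0.30 ± 0.15 with a 95% interval of -0.06 to 0.66, and it did not pass the threshold under any of the 17 alternatives. Without wild type array 2 the difference was 0.12. The log2 value of CLN2 minus that of CLN3 was 0.33, 0.65 and 0.41 in the wild-type-labelled arrays and -0.85, -0.87 and -0.48 in the deletion-labelled arrays, and the groups did not overlap.

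PCL1 encodes a cyclin that binds Pho85 in G1. Its intensity was 998.94, 1105.03 and 1286.42 in the wild-type-labelled arrays and 733.99, 706.05 and 848.60 in the deletion-labelled arrays. All deletion-labelled arrays lay below all wild-type-labelled ones, and array 3 was the highest of its group in both. The log2 means were 10.13 ± 0.20 and 9.62 ± 0.16 (SD, n = 3 each), a difference of -0.52 ± 0.12 (SE), or 1.43-fold lower. PCL1 no longer passed without wild type array 2 (-0.52), wild type array 3 (-0.42), deletion array 1 (-0.49) or deletion array 2 (-0.45), each a fit on fewer arrays.

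PCL2 encodes a related Pho85 cyclin, whose gene is also driven by Swi5 in late mitosis. Its intensity was 559.35, 626.17 and 674.19 in the wild-type-labelled arrays and 565.55, 528.26 and 525.54 in the deletion-labelled arrays. The lowest wild-type-labelled array lay among the deletion-labelled arrays. The log2 difference was -0.18 ± 0.08 with an interval of -0.38 to 0.02, and it passed the threshold in 1 of 17 alternatives, with median centring (-0.28). The log2 value of PCL1 minus that of PCL2 was 0.84 ± 0.05 in the wild-type-labelled arrays and 0.50 ± 0.17 in the deletion-labelled arrays (SD, n = 3 each), and the groups did not overlap.

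**Figure D2:**
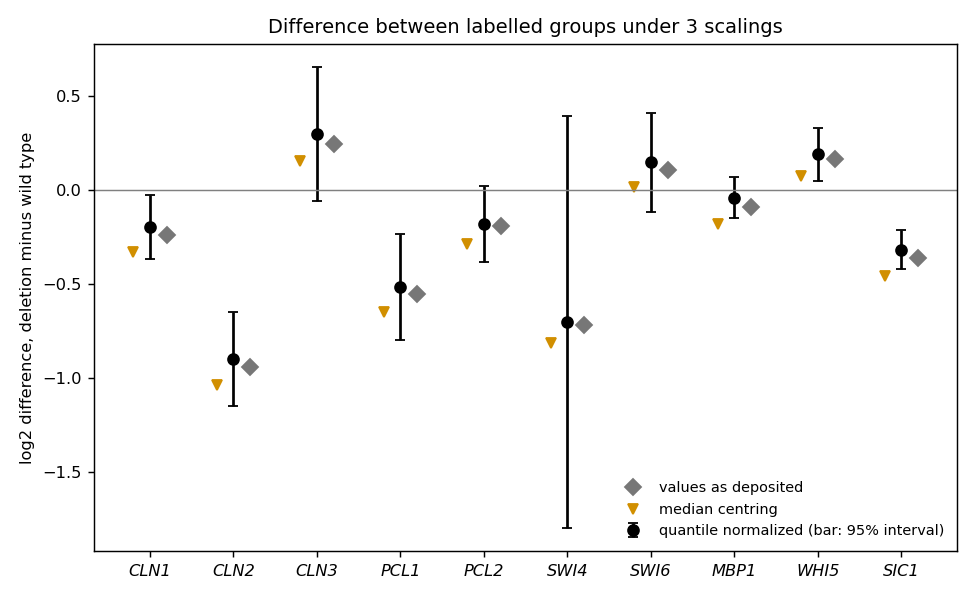
Log2 difference of each gene, deletion-labelled arrays minus wild-type-labelled arrays, under 3 scalings. Black points have 95% intervals from the limma fit on 3 arrays per group; CLN2 is lowest at -0.90, the interval of SWI4 runs from -1.80 to 0.40, and median centring lowers every gene by a similar amount.

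The DNA-binding subunit of SBF, SWI4, had a spread within groups larger than that of 99.9% of genes. Its intensity was 1000.73, 1017.37 and 453.02 in the wild-type-labelled arrays and 627.05, 681.59 and 230.83 in the deletion-labelled arrays. In both groups array 3 was far below the other 2, and at each array number the deletion-labelled array was the lower. The log2 differences at array numbers 1, 2 and 3 were -0.60, -0.58 and -0.93. Over all 6 arrays the difference was -0.70 ± 0.46 (SE) with an interval of -1.80 to 0.40, and it did not pass the threshold. With both arrays numbered 3 left out it was -0.59 ± 0.05, and with those arrays as a batch -0.70 ± 0.08. It passed in both fits. With median centring of all 6 arrays it was -0.81 ± 0.18 (SE), and it passed on an SE smaller than the 0.46 above. Limma draws the spread of each gene towards a common value. In that fit the SEs of the other genes described ran from 0.09 to 0.11, against 0.04 to 0.15 in the main fit. The smaller SE thus does not show that the SWI4 arrays lay closer together. With quantile normalization the SWI4 difference moved to -0.23 without deletion array 3 alone and to -1.05 without wild type array 3 alone. It passed in neither. The size and the call of SWI4 therefore depended on the scaling and on how the arrays numbered 3 were treated.

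Relative to the mean of the other 2 arrays of its group, array 3 stood at -1.07 for SWI4 in the group labelled wild type and at -1.42 in the group labelled deletion. Of 5437 genes measured on all arrays, SWI4 was the only 1 below -1 in both groups. For 90% of genes, these deviations ran from -0.26 to 0.20 and from -0.27 to 0.21. SWI6 was also lower on both arrays numbered 3, by far less, at -0.17 and -0.33. HCM1, a forkhead factor gene known as an SBF target, stood at -0.57 and -0.76, and SWI5, which encodes a factor of late mitosis, at -0.27 and -0.48. HCM1 and SWI5 were chosen after their values were seen. CLN2 and PCL1 did not share the drop, with array 3 at 0.05 and 0.27 for CLN2 and at 0.30 and 0.27 for PCL1. The labels do not say what the array numbers stand for.

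**Figure D3:**
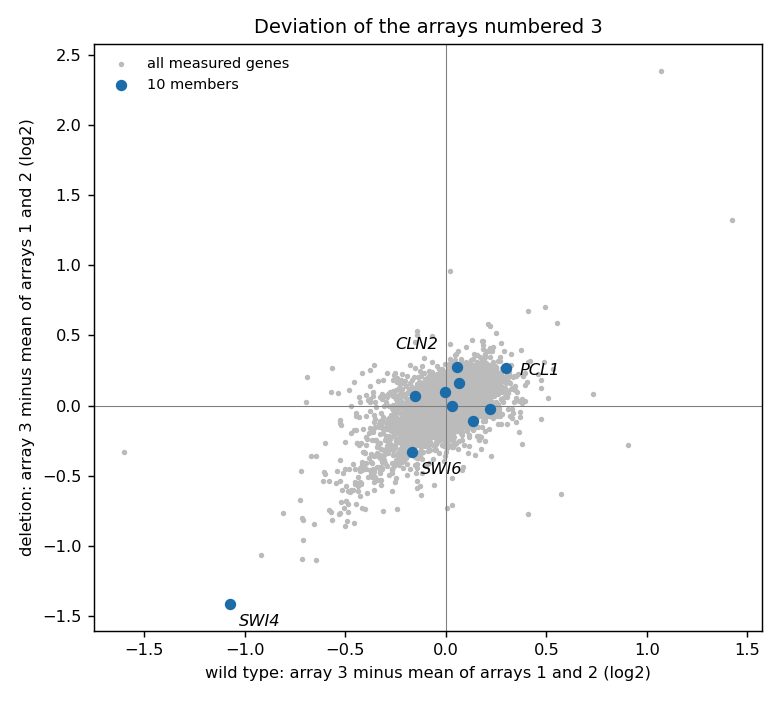
Log2 value of array 3 minus the mean of arrays 1 and 2, in the group labelled wild type (horizontal axis) and in the group labelled deletion (vertical axis), for every gene measured on all arrays. Grey points are all genes and blue points the 10 genes described; SWI4 lies at -1.07 and -1.42, away from the other 9.

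SWI6 encodes the subunit that SBF and MBF share. Its intensity was 891.09, 965.90 and 810.84 in the wild-type-labelled arrays and 1071.30, 1015.75 and 807.50 in the deletion-labelled arrays. The groups overlapped, and array 3 was the lowest of each. The log2 difference was 0.15 ± 0.11 with an interval of -0.11 to 0.41, and it passed under none of the 17 alternatives.

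MBP1, the DNA-binding subunit of MBF, was the steadiest of the factor genes. Its intensity was 1551.62, 1588.92 and 1519.24 in the wild-type-labelled arrays and 1417.08, 1454.81 and 1507.28 in the deletion-labelled arrays. The deposited values of the groups did not overlap, by a narrow margin, and after normalization they did. The log2 difference was -0.04 ± 0.05 with a 95% interval of -0.15 to 0.07. With median centring the difference was -0.18, and it passed under none of the 17 alternatives.

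WHI5 encodes the repressor of SBF. Its intensity was 592.66, 601.52 and 517.34 in the wild-type-labelled arrays and 616.17, 661.08 and 648.34 in the deletion-labelled arrays. Every deletion-labelled array was above every wild-type-labelled array, by a narrow margin. The log2 means were 9.18 ± 0.09 and 9.37 ± 0.05 (SD, n = 3 each), a difference of 0.19 ± 0.06 (SE) with an interval of 0.05 to 0.33. WHI5 did not pass the threshold over all genes, here or under any of the 17 alternatives, and with median centring the difference was 0.07.

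SIC1 encodes the inhibitor of Cdc28 bound to S-phase and mitotic cyclins, and its mRNA is made as cells leave mitosis and enter G1. Its intensity was 2954.14, 2655.44 and 2777.82 in the wild-type-labelled arrays and 2141.83, 2208.67 and 2156.19 in the deletion-labelled arrays. The arrays of each group lay close together and the groups were well apart. The log2 means were 11.44 ± 0.05 and 11.12 ± 0.02 (SD, n = 3 each), a difference of -0.32 ± 0.04 (SE), or 1.25-fold lower. SIC1 passed the threshold under each of the 17 alternatives, with differences from -0.46 to -0.30.

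Taken as profiles over the 6 arrays, the genes whose log2 values followed those of CLN2 best were IME1 (Pearson r = 0.997), SED1 (r = 0.995) and AIM3 (r = 0.995). IME1 encodes the activator of meiotic genes and lies on chromosome X, and SED1 encodes a major cell wall protein. All 3 were lower in the deletion-labelled arrays, by -0.67 ± 0.09, -0.15 ± 0.04 and -0.21 ± 0.04 (SE). Among the other 9 genes r with CLN2 was 0.98 for SIC1, 0.87 for PCL1 and 0.76 for CLN1, and it was -0.81 for WHI5 and -0.68 for SWI6. These values describe 6 arrays that fall into 2 labelled groups, so they mostly restate the difference between the groups.

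The genes next to the 10 on their chromosomes were read as a check of position. Of 20 nearest protein-coding neighbours 1 was called lower and 0 higher. Off chromosome X, where all of them lie, 5.05% of genes passed as lower, so the count lower is near that share. Of all genes 11.6% passed as higher. The neighbours of CLN2, YPL257W and BBP1, differed by 0.07 and 0.13, those of PCL1, RFC3 and CAF40, by -0.02 and -0.15, and those of SIC1, BOS1 and EMP46, by 0.18 and 0.15, and none of these passed the threshold. The 1 call was TOS4, next to SWI6, a G1 gene itself (-0.34 ± 0.05, limma adjusted p = 0.0019).

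The wider circuit was read from lists written from general knowledge, with earlier results of these data known. The counts for these lists are therefore a description. Of all genes 10.2% passed as lower and 11.6% as higher, and off chromosome X 5.05% passed as lower. Among 15 other regulators of Start and partners of Cdc28, 5 fell, 10 did not pass and 0 rose, with a median log2 difference of -0.13 against 0.03 over all genes. SRL3, also called WHI7, encodes a relative of Whi5; it stood at 10.47, 10.35 and 10.45 in the wild-type-labelled arrays and at 9.67, 9.83 and 9.74 in the deletion-labelled arrays, and fell by 0.68 on the log2 scale (limma adjusted p = 2.51e-04). XBP1, a stress-induced repressor that acts on G1 cyclin genes, stood at 8.39, 8.38 and 8.39 against 6.86, 7.32 and 7.26 and fell by 1.24 (adjusted p = 4.08e-04). Both sets of arrays were well apart. FAR1, the inhibitor of Cln-bound Cdc28 in the pheromone response, fell by 0.79 (adjusted p = 7.67e-04) and lies on chromosome X. MSA2, which encodes a protein bound to SBF and MBF, fell by 0.34 (adjusted p = 0.0062). The fifth was RME1, a repressor of meiosis that also promotes CLN2 expression, at -0.20 ± 0.05 (adjusted p = 0.033). RME1 was not called in 6 of 17 alternatives, among them those without wild type array 1, wild type array 3, deletion array 1 or deletion array 3. CDC28 itself differed by -0.07 ± 0.09, and the S-phase cyclin genes CLB5 and CLB6 by -0.04 ± 0.06 and -0.13 ± 0.08; these 3 did not pass and were chosen after their values were seen.

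Genes known as SBF targets were lower in 10 of 20 cases and higher in 0, and their median was -0.21. Over all genes 10.2% were lower and the median was 0.03. With CIS3, which lies on chromosome X, set aside, 9 fell. TOS6, a cell wall gene, stood at 13.21, 13.17 and 13.15 in the wild-type-labelled arrays and at 12.43, 12.47 and 12.67 in the deletion-labelled arrays, a difference of -0.66 ± 0.07 (limma adjusted p = 7.39e-04). CSI2, a gene linked to chitin synthesis, differed by -0.62 ± 0.07 and YOX1, which encodes a repressor of genes that peak between mitosis and G1, by -0.54 ± 0.07 (adjusted p = 9.57e-04 and 0.0014). TOS4 was given above. HO, the mating-type endonuclease gene that is a classical SBF target, was looked at after its values were seen. It stood at 10.91, 11.14 and 11.15 against 10.54, 10.66 and 10.64 and differed by -0.45 ± 0.08 (adjusted p = 0.0062). It was not called with both arrays numbered 3 left out. GAS1, FKS1, PSA1 and KRE6, cell wall genes also named after their values were seen, differed by 0.06, -0.06, 0.03 and 0.03 and did not pass.

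Genes known as MBF targets were lower in 14 of 24 cases and higher in 0, against 10.2% lower over all genes, and their median was -0.26. The 4 with the smallest p, SWE1, RFA3, ASF1 and SMC3, all lie on chromosome X and differed by -1.12, -0.92, -0.94 and -1.02. Of the 20 off chromosome X 10 fell, and their median was -0.20. Among those RNR1, which encodes a large subunit of ribonucleotide reductase and was chosen after its values were seen, stood at 12.75, 12.75 and 12.74 in the wild-type-labelled arrays and at 12.23, 12.25 and 12.35 in the deletion-labelled arrays. Its difference was -0.47 ± 0.05 (limma adjusted p = 4.35e-04), a drop seen in every deletion-labelled array. The list held 2 further genes that were not analysed here.

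**Figure D4:**
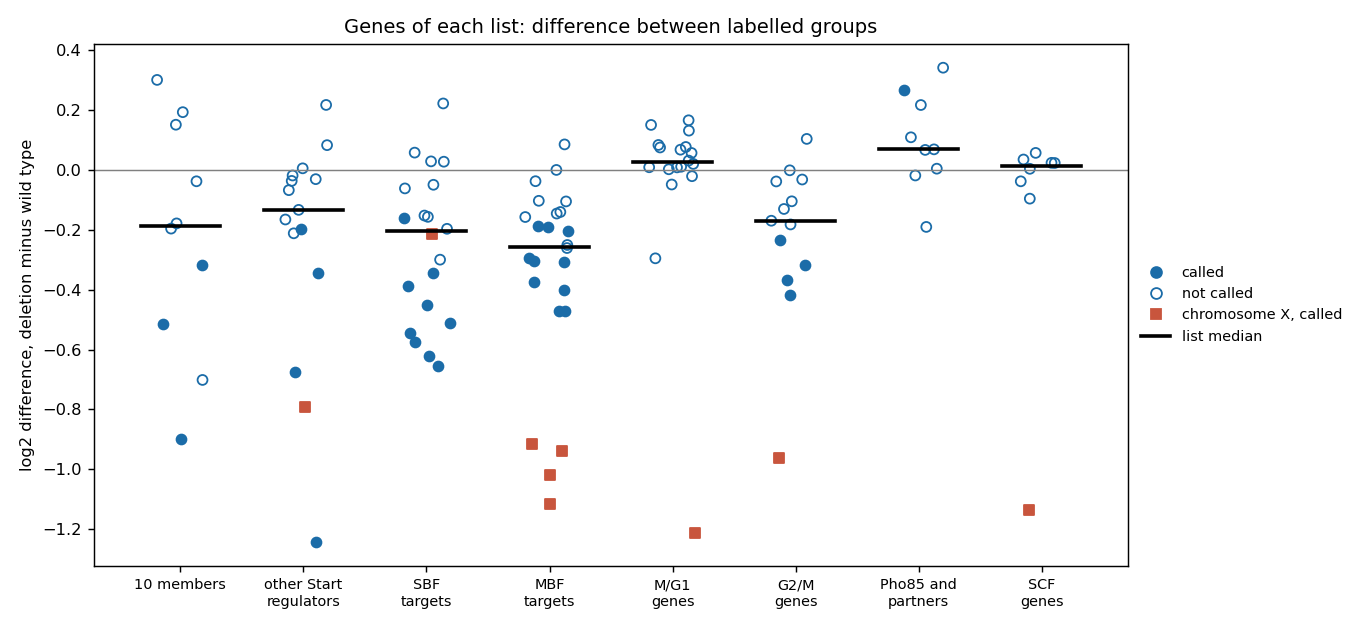
Log2 difference of each gene, deletion-labelled arrays minus wild-type-labelled arrays, in the 10 genes and 7 lists of related genes. Filled symbols passed an adjusted p of 0.05 in limma over all genes, red squares lie on chromosome X and lines are medians; the SBF and MBF target lists have medians of -0.21 and -0.26 and the list of M/G1 genes 0.02.

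Genes that act before Start were mostly near 0. Of 18 measured genes that peak between mitosis and G1 or control that phase, 1 fell and 0 rose, and the median was 0.02. Over all genes 10.2% passed as lower and 11.6% as higher, and off chromosome X 5.05% passed as lower. The count lower is thus near the share among genes in general. The fall was that of CDC6, the replication licensing gene on chromosome X (-1.21 ± 0.11, limma adjusted p = 3.21e-04). The remaining 17 did not pass, among them the licensing gene MCM3 (0.15 ± 0.04, adjusted p = 0.051) and ASH1, a daughter-cell repressor (0.16 ± 0.05, adjusted p = 0.060). The chitinase gene CTS1 and the daughter-cell gene DSE2 differed by 0.07 ± 0.04 and 0.01 ± 0.05. SWI5 had the most negative difference of the uncalled genes, at -0.30 ± 0.15 (limma adjusted p = 0.21). That size is near the -0.32 ± 0.04 of SIC1, with a larger SE. The uncalled genes named here were picked once their values were known. The list held 1 further gene that was not analysed here. Thus SIC1, which shares its timing with these genes, passed the threshold and they did not, CDC6 aside; the difference between SIC1 and the list was not tested.

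Of 13 regulators of G2 and mitosis 5 fell and 0 rose, against 10.2% lower over all genes, with a median of -0.17. BUD4, an axial budding gene on chromosome X, fell by 0.96, the mitotic exit kinase gene DBF2 by 0.42, the B-type cyclin gene CLB4 by 0.32 and the histone deacetylase gene HST3 by 0.23 on the log2 scale (limma adjusted p = 3.38e-05, 0.0027, 0.0055 and 0.014). HST3 was not called without deletion array 2. The fifth was ALK1, a kinase gene, at -0.37 ± 0.10 (adjusted p = 0.038), which was not called in 6 of 17 alternatives, among them those without any 1 of the wild-type-labelled arrays or without deletion array 2 or 3. The mitotic cyclin genes CLB1 and CLB2, chosen after their values were seen, differed by -0.03 and -0.04 and did not pass. With median centring 8 of the 13 were called lower, but so were more genes in general, 858 of 5449 against 554 in the main fit. The median difference of the list was thus near that of the SBF targets, at -0.17 against -0.21. Off chromosome X these medians were -0.15 and -0.20. The difference between the lists was not tested.

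Pho85, the kinase that Pcl1 and Pcl2 bind, also works with Pho80 in phosphate control and with other cyclins in glycogen and amino acid metabolism. Of 9 genes for Pho85 and its other partners 1 rose and 0 fell, with a median of 0.07. Over all genes 11.6% passed as higher and 10.2% as lower. PCL6, which encodes a Pho85 cyclin of the glycogen branch, stood at 10.44, 10.36 and 10.48 in the wild-type-labelled arrays and at 10.69, 10.65 and 10.74 in the deletion-labelled arrays, a difference of 0.27 ± 0.05 (limma adjusted p = 0.0088). The groups did not overlap, but PCL6 was not called with median centring. PHO85 and PHO80, chosen after their values were seen, differed by 0.07 ± 0.04 and 0.00 ± 0.08. Of 8 genes of the SCF ubiquitin ligase and its helpers, which act in the destruction of Sic1 and the G1 cyclins, 1 fell and 0 rose. The fall was that of GRR1 on chromosome X, the adaptor for Cln1 and Cln2 (-1.13 ± 0.05, adjusted p = 3.38e-05). CDC4, the adaptor for Sic1, was not called and differed by -0.10 ± 0.05 (adjusted p = 0.18); it was chosen after its values were seen, as the gene with the smallest p of the 7 not called.

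On the scale relative to the median gene, the differences of the 10 changed little between quantile normalization and the values as deposited. Median centring shifts each array by a constant, so on this scale it must give the same values as those deposited and adds no check. CLN2 stood at -0.93 after quantile normalization and at -0.95 with the values as deposited or median centred, PCL1 at -0.55 and -0.56 and SIC1 at -0.35 and -0.37. CLN3, SWI6 and WHI5 stood above the median gene with quantile normalization and as deposited, by 0.24 to 0.26, 0.10 to 0.12 and 0.16. The other 7 stood below it in both.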

How the data were processed

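Intensities of 10928 Affymetrix probe sets on 6 arrays, 3 per labelled group, were used as the authors deposited them, on a linear scale with 1 intensity per probe set. Biotin-labelled cRNA was made by the one-cycle protocol, per the labels' protocols; the summarizing and scaling software is not given here. Summed intensity was 17790600 to 18431400 per array. Names came from the platform's gene table, updated from that of R64; 5498 probe sets stood for 5449 genes, and the brightest probe set stood for a gene with several. The log2 medians of the arrays differed by 0.26, so all probe sets were quantile normalized and taken as log2(value + 16), so that differences of dim genes are understated. The test was limma 3.58.1 (lmFit, eBayes; R 4.3.3) with Benjamini-Hochberg adjustment over the 5449 genes and a threshold of 0.05; an adjusted p named in the text is from that fit. The background limit, 6.48, is the 95th percentile of 1746 S. pombe probe sets. The number of arrays limits the precision.

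The 10 genes, the 7 lists of related genes and the alternatives were chosen with earlier results of these data known. Named are the 10 genes, YPR045C, marker genes, called neighbours, and both neighbours of CLN2, PCL1 and SIC1. Of each list, up to 4 called genes with the smallest p are named. Where a list has no call, the 2 uncalled genes with the smallest p are named. RME1 and ALK1 were added as the last called genes of their lists. The 3 profiles most like the largest difference are also named, and others are stated as chosen after their values were seen. The alternatives were other scalings, pseudocounts of 1 and 64, another spread model, only genes above background, the array number as a block, each array left out, both arrays numbered 3 left out or as a batch, chromosome X genes left out, and the dimmest probe set of a gene. The array numbers did not pair the arrays throughout: deviations of same-numbered arrays correlated at -0.15, -0.03 and 0.60. Wild type array 1 with deletion array 2 gave 0.46, and wild type array 2 with deletion array 1 gave 0.48. The remaining correlations ran from -0.41 to -0.30. Deviations were thus shared between the groups, and the main fit, on group only, did not take this into account.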

Additional observations from a re-analysis of the deposited data

How the results depend on the processing

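Of the 10 genes CLN2 and SIC1 were called lower under all 17 alternatives. With median centring 6 of the 10 were called lower and 0 higher, CLN1, PCL2 and SWI4 besides CLN2, PCL1 and SIC1; under the other alternatives 2 to 4 were called lower. In all genes 258 were then higher and 858 lower, of the G2 and mitosis list 8 were lower, of the M/G1 list 2, and of the Pho85 list 1 was lower and 0 higher. With chromosome X genes left out 378 genes were higher and 340 lower, and 0 of the SCF and 0 of the M/G1 list were lower. The only genes of these lists called in the main fit, GRR1 and CDC6, lie on chromosome X and were themselves left out. With the values as deposited 2 SCF genes were lower. With the pseudocount of 64, the filter on dim genes or the other spread model, 1 SBF target and 1 M/G1 gene were higher, and with the last also 2 of the Pho85 list. With both arrays numbered 3 left out 352 genes and 2 of the Pho85 list were higher. With them as a batch 2 of the Pho85 list, 1 SBF target and 2 M/G1 genes were higher and 2 M/G1 genes lower. With the array number as a block, 697 genes were higher and 600 lower, and 4 of the 10 were lower, SWI4 added at -0.70 ± 0.08 (SE). In that fit 2 of the Pho85 list were higher and 2 M/G1 genes lower. The deviations of arrays 1 and 2 did not pair by number. With each array left out, 375 to 481 genes were higher, 3 to 5 G2 and mitosis genes lower, 1 to 2 of the Pho85 list higher, and 0 to 1 of the other Start regulators, the SBF targets and the M/G1 genes higher. The causes of these changes were not tested, and some of these fits held fewer genes or arrays.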
